A study of Mus musculus with 18 samples.

Results

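A pair of white fat depots of laboratory mice was compared gene by gene: inguinal fat (iWAT), which lies under the skin of the groin, and epididymal fat (eWAT), which lies inside the body cavity beside the testis and its ducts. A gene was kept when its lowest value among the 6 libraries of one depot was at least 2 times its highest value among the 6 libraries of the other, with both lighting schedules pooled. Of 23410 gene symbols found in both tables, 422 were kept, 169 of them higher in iWAT and 253 higher in eWAT. The 2 depots were counted in separate files, made with different gene models and different scaling. A depot difference and a difference between the files therefore cannot be told apart for a single gene. Gene models could be compared, but the files may differ in other ways. The differences between depots chose the genes, and they are given as a description with no test.

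All mice were C57BL/6, and all groups carried the same label of strain, with no transgene or drug named. Control mice lived on 12 h of light and 12 h of darkness. Shiftwork mice had that cycle on 4 days of each week and the reverse on the other 3 days, and both regimes ran for 24 weeks. Inguinal fat was taken at ZT3 (3 h after lights on, 8 AM), epididymal fat at ZT3 and at ZT12 (5 PM, lights off), with 3 libraries of each schedule at each depot and time, 18 libraries in 6 groups. The ages of the mice were not given in the sources used here. The labels give 4 of the 6 inguinal libraries a number that recurs among the ZT12 epididymal libraries and do not say what the number means. Nothing in them says whether libraries of a group came from separate animals. Xist was near 0 in every library (highest 0.407 counts per 1e+06 reads, CPM) and the Y-linked gene Ddx3y stood between 20 and 174 CPM.

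White fat stores triglyceride in adipocytes, but a piece of the tissue also holds fibroblasts, vessels, nerves, immune cells and, in depots that lie in the body cavity, a sheet of mesothelial cells over the surface. Fat depots form from different stretches of the embryonic mesoderm, and transcription factors of the embryo's body plan, such as Hox, T-box and homeodomain proteins, stay on in adult depots in a pattern that marks where each arose. A whole-tissue library reads all of these cells at once, so fewer cells of a type and less RNA per cell cannot be told apart here.

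Total reads assigned to genes were 20352008 to 72276733 per library in eWAT and 28544338 to 55639501 in iWAT. Several libraries carried transcripts of neighbouring organs. The summed level of 15 vas deferens and epididymis markers was 11958 and 12090 CPM in eWAT ZT3 control replicates 1 and 3, against 2.16 to 47.3 CPM in the other ZT3 libraries. That of 12 spermatid markers was 6265 CPM in eWAT ZT3 shiftwork replicate 3 and at most 49.1 CPM in the other 5. That of 22 skeletal muscle genes was 82837 CPM in iWAT shiftwork replicate 1 and 143 to 1226 CPM in the other inguinal libraries, and that of 12 B and plasma cell genes was 1447 and 2192 CPM in iWAT control replicates 1 and 2 and at most 67.3 CPM in the other 4. The rule asks every library to be apart, so all 422 genes stay members when any of these libraries is left out, and other genes join them (422 higher in iWAT and 338 in eWAT without the 3 eWAT libraries, 240 and 311 without the 3 iWAT libraries). Adipocyte genes marked both depots: Adipoq, which encodes the hormone adiponectin, ranged from 1048 to 2929 CPM in iWAT and from 872 to 3614 CPM in eWAT at ZT3. None of 30 adipocyte identity genes was a member. Of all genes with at least 1 CPM throughout a depot 2.04% were members, so this count lies near the background.

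A set of 5 members is shown by the DNA just upstream of their start. All 5 have clear gene models, defined below, and an entry among the RefSeq promoters used. They code for body-plan factors (Lhx8, Shox2, En1, Tcf21) or a mesothelial membrane protein (Upk3b). Tbx15, Hoxc10, Wt1 and Msln had no such entry and could not be shown. Each stretch runs from 250 to 101 bases before the RefSeq start, 150 bases 5′ to 3′ on the gene's strand, build GRCm38.p6. Capitals mark every match, on either strand, to one of 3 motifs. The motif of the core promoter is TATAAA. The windows end 101 bases before the start and say nothing of a TATAAA closer to it. The motif of NF-Y is CCAAT. The motif of Sp1 is GGGCGG. The windows are chr3:154330661-154330810 (minus strand) for Lhx8, chr3:66981872-66982021 (minus) for Shox2, chr1:120602237-120602386 (plus) for En1, chr10:22820244-22820393 (minus) for Tcf21 and chr5:136038246-136038395 (plus) for Upk3b.
Lhx8: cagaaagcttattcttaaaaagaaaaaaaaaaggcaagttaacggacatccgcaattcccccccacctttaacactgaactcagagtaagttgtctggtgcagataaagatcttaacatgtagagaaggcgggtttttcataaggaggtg
Shox2: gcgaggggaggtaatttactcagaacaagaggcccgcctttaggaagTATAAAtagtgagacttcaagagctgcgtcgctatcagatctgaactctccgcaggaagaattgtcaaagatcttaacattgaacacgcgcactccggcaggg
En1: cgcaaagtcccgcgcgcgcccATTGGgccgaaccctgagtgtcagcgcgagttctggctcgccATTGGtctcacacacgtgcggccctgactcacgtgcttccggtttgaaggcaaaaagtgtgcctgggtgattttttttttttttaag
Tcf21: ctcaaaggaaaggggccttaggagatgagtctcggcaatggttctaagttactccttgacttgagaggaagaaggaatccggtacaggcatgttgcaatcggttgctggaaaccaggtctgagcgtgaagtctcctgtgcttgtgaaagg
Upk3b: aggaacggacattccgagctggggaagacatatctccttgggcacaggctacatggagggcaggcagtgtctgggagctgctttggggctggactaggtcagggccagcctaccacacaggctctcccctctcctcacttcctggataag
The 3 motifs do not overlap one another in their letters. Shox2 held 1 TATAAA, En1 held 2 CCAAT matches in the reverse orientation, and Lhx8, Tcf21 and Upk3b held none of the 3 motifs in these windows. Of 32851 windows of the same length, 7.29% held TATAAA, 19.98% CCAAT and 16.7% GGGCGG. En1 was rich in CpG (13, against a median of 3 over all windows) and Upk3b poor (2). Lhx8 is one side of a divergent pair: AI606473, a predicted gene that is also a member, starts 261 bases from it on the other strand, so the bases printed for Lhx8 lie between both starts. Of the 58 members with clear gene models defined next, 43 had an entry in the promoter table. Of the 22 higher in iWAT, 3 held TATAAA, 6 CCAAT and 2 GGGCGG, and of the 21 higher in eWAT these were 0, 4 and 6. A gene with several windows was counted when any of them matched, while the shares above are per window.

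How far a member can be read as a depot difference depends, among other things, on its gene model. Reads of each library were scaled to CPM with 1 factor per library, and 12773 genes reached 1 CPM in all 6 libraries of a depot. Of these, 261 were members: 108 higher in iWAT (0.846% of genes at that level) and 153 higher in eWAT (1.2%). The other 161 members, 61 and 100, were below 1 CPM somewhere in the higher depot and are counted only. For each gene, the share of its 51-base windows that also occur in another gene's transcripts was counted, since a 51-base read from such a window can be given to either gene or to none. The gene length behind each table was compared as well. For genes with no inguinal reads, 10 of the members higher in eWAT, the length in the GENCODE M21 annotation stood in for the inguinal one. Among the 108 members higher in iWAT, 50 (46.3%) had over 10% shared windows, and among the 153 higher in eWAT, 108 (70.6%) did, against 16.6% of all genes at 1 CPM. Lengths more than 2-fold apart were found for 51 (47.2%) and 36 (23.5%), against 13.2%. All 51 of the iWAT-higher genes with unequal lengths were longer in the inguinal table, and 30 of the 36 eWAT-higher ones were shorter there. Members therefore moved with the gene models, and what part these played in each value was not tested. That leaves 58 members with at most 10% shared windows and lengths within 2-fold, 29 higher in each depot. They are 0.624% of the genes with such clear models, while members make up 5.82% of the genes without.

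**Figure D1:**
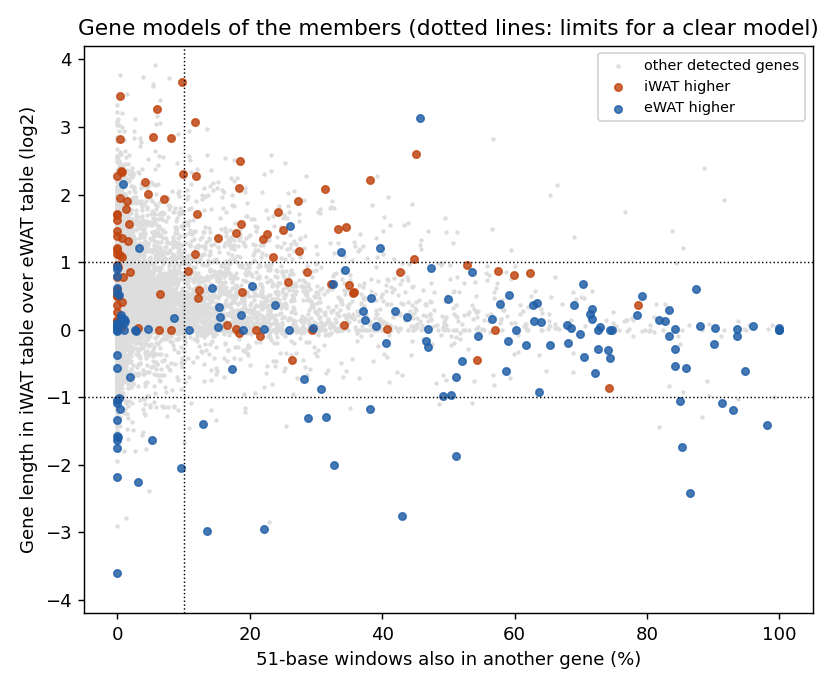
Share of a gene's 51-base windows that also occur in another gene (x axis, %) against the gene's length in the iWAT table over that in the eWAT table (y axis, log2). For genes with no inguinal reads the GENCODE length was used in place of the iWAT one. Red points are members higher in iWAT, blue points members higher in eWAT, grey points other genes at 1 CPM. Members inside the dotted lines (at most 10% and within 2-fold) have clear models. Red points reach up the y axis and blue points spread to the right and down.

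Neighbouring members are described as single cases. Among members that lie within 1000 bases of each other there were 13 pairs, and in 5 of them the partners went opposite ways: Fam89b (eWAT ZT3 27.3, 33.6 and 41.3 CPM as lowest, median and highest, iWAT at most 0.066) with Sssca1 (iWAT 13.1, 14.2 and 17.2 CPM, 0 reads in eWAT ZT3), Zbtb9 with Ggnbp1, Trim17 with Hist3h2a, Phospho1 with Zfp652 and Zgpat with Lime1. All 5 of these pairs overlap in their spans. The other 8 pairs went the same way, and Ugt1a6a with Ugt1a2, Zc3h11a with Zbed6 and H2-Ke6 with Slc39a7 overlap too. Pairs among all genes were not counted, and the part of gene models in these pairs was not tested. Gapdh, a glycolytic enzyme that cells express at a high level, was listed at 3.67 to 7.01 CPM in iWAT and 0.655 to 1.25 CPM in eWAT ZT3, low in both tables, with 25% shared windows. Eno1, the glycolytic enolase, was listed at 98.6 to 157 CPM in iWAT and 0.443 to 4.01 in eWAT, with 25.9% shared windows. Many of the 15 widest gaps on each side belonged to genes with shared windows or unequal lengths. On the inguinal side these also included Rpl26, H2-Q6, Brms1, Snrpn, Lrrc24, H2-T22, Lbhd1, Rnaset2a and Nptxr. On the epididymal side they included Zbed6, Nnt, Tomm6, Cpne1, Pagr1a, Pde2a, Gng10, Scamp4, Taf9, Mir3064 and Gemin4. Cfb, complement factor B, gave 2.57, 3.51 and 3.98 CPM in iWAT against 129, 258 and 310 CPM in eWAT ZT3, with 72.9% shared windows. Nnt, a mitochondrial proton-pumping transhydrogenase, gave 0.075, 0.305 and 0.388 CPM against 60.5, 73.5 and 86.2 CPM, with 46.9%. From here the text follows the 58 clear members, and names others with what sets them apart.

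**Figure D2:**
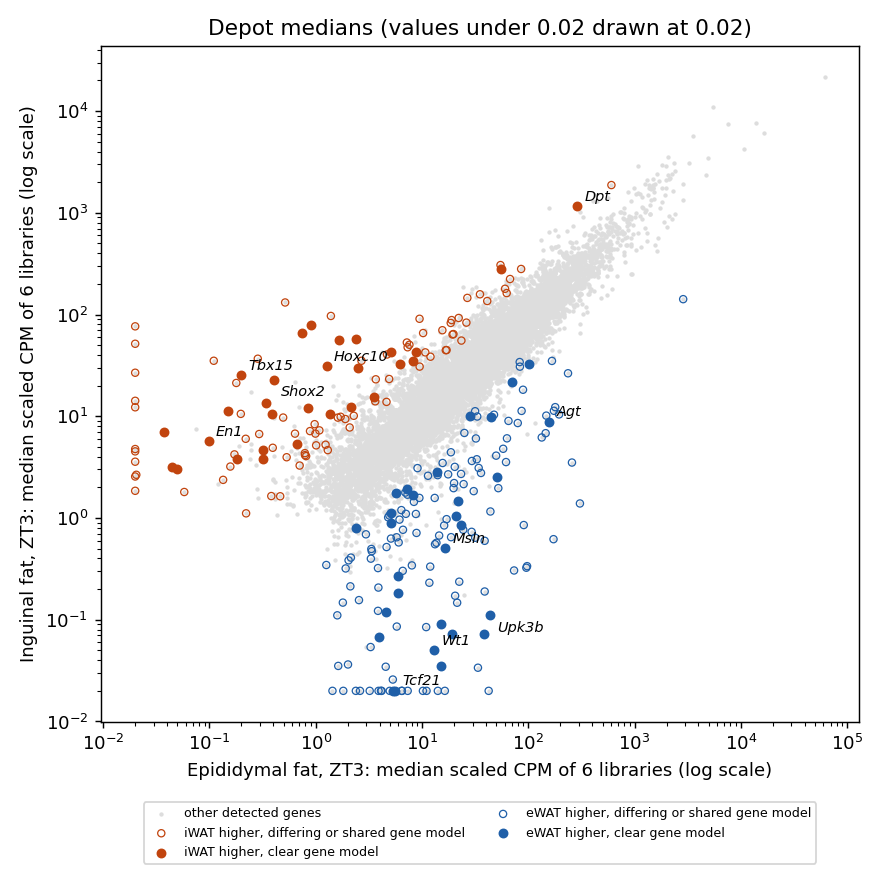
Median scaled CPM of 6 eWAT ZT3 libraries (x, log scale) against 6 iWAT libraries (y, log scale) for genes at 1 CPM. Filled points are the 58 members with clear gene models, open circles the other 203 members at 1 CPM, red higher in iWAT, blue higher in eWAT. Tbx15, Shox2 and En1 lie near the left edge, and Upk3b, Wt1 and Tcf21 near the lower edge.

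Body-plan transcription factors differed in both directions. Of 37 such factors at 1 CPM (Hox genes apart), 4 were members higher in iWAT and 4 higher in eWAT (0.846% and 1.2% of all genes). In these directions 8 and 7 did not overlap (11.6% and 7.2% of all genes). The median difference of the 37 was 0.52 (log2, iWAT minus eWAT) beside 0.07 over all genes at that level. Tbx15, a T-box factor on chr3:99253760-99354260, had 14.4, 25.5 and 104 CPM in iWAT (lowest, median, highest), 0, 0.199 and 0.251 CPM in eWAT ZT3 and 0, 0.0684 and 0.192 CPM in eWAT ZT12. All 6 inguinal libraries were high, and the nearest libraries of the depots were 57.5-fold apart. The highest value was in shiftwork replicate 1, the library with the most skeletal muscle transcripts, and the part of muscle in it was not tested. The difference in mean log2(CPM + 0.5) was 5.50 ± 0.39 (SE, n = 6 and 6). Shox2, a short-stature homeobox factor of limb development, had 14.4, 22.6 and 33.9 CPM in iWAT against 0.201, 0.402 and 1.02 CPM in eWAT ZT3 (4.60 ± 0.24 on the log2 scale). En1, the homeobox gene engrailed 1 on chr1:120602487-120607991, had 2.5, 5.68 and 10.1 CPM against 0.041, 0.0985 and 0.245 CPM (3.22 ± 0.35). Their groups did not overlap in either comparison, and Shox2 and En1 in eWAT ZT12 reached only 1.3 and 0.236 CPM.

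Lhx8, a LIM-homeobox factor, was at 4.92, 7.06 and 13 CPM in iWAT and at 0, 0.0373 and 1.27 CPM in eWAT ZT3. The single high epididymal value was that of shiftwork replicate 3, the library with spermatid transcripts. Its divergent neighbour AI606473 was at 1.87, 3.15 and 5.35 CPM in iWAT and at most 0.164 CPM in eWAT ZT3. The same inguinal library, shiftwork replicate 2, was highest for both genes. Gsc, goosecoid, a homeobox factor of the embryonic organizer, had 1.16, 3.04 and 8.22 CPM against 0, 0.0497 and 0.492 CPM. Tbx5, Prrx1, Twist2 and Msx1, factors of limb and skin mesenchyme, did not overlap between depots at ZT3 either and were higher in iWAT, but without a 2-fold gap: Tbx5 had 3.3, 4.69 and 10.3 CPM against 0, 0.248 and 1.92 CPM.

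On the epididymal side, Tcf21, a basic helix-loop-helix factor of visceral mesoderm on chr10:22817275-22820128, had 4.32, 5.54 and 11.8 CPM in eWAT ZT3 against 2 reads in all 6 inguinal libraries. Wt1, the Wilms tumour zinc finger factor, had 5.44, 13 and 27 CPM against 11 reads in 6 inguinal libraries, and Bnc1, basonuclin 1, 1.52, 5.29 and 7.03 CPM against 2 reads. Alx1, a paired-type homeobox factor, had 1.13, 4.11 and 10.2 CPM in eWAT ZT3 and 0 reads in iWAT, where 3 reads correspond to 0.0495 to 0.113 CPM. Its epididymal length and its GENCODE length, which stood in for the inguinal one, were 2.31-fold apart, so it is outside the clear set. Foxc1 and Meis1 were higher in eWAT without overlap and without a 2-fold gap.

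**Figure D3:**
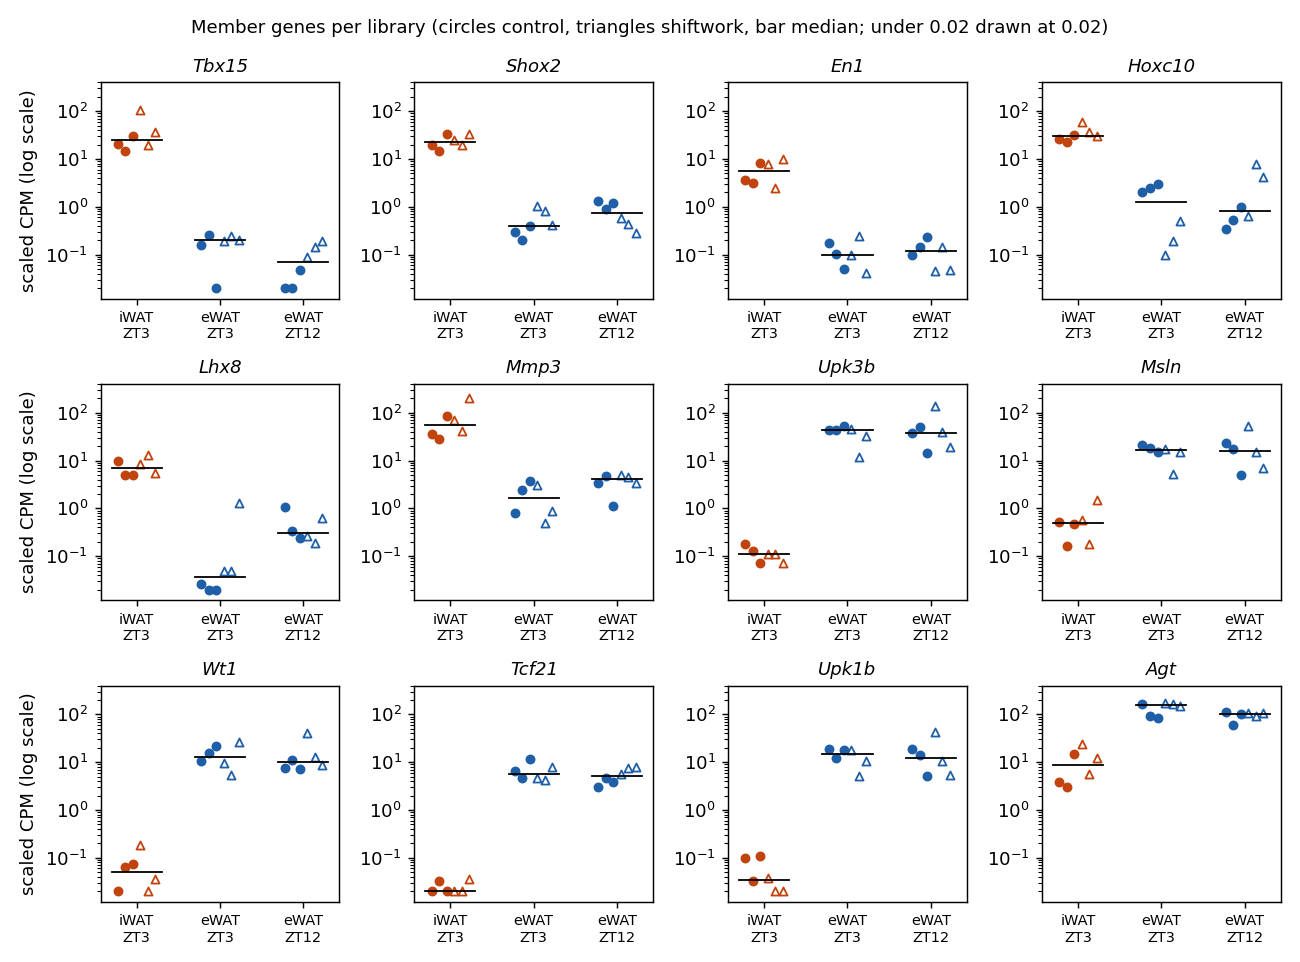
Scaled CPM (log scale) of 12 clear members in each library of iWAT ZT3 (red), eWAT ZT3 and eWAT ZT12 (blue). Circles are control, triangles shiftwork libraries, bars the median of 6, and values under 0.02 are drawn at 0.02. Tbx15 to Mmp3 sit higher in iWAT and Upk3b to Agt higher in eWAT, with no overlap in any of the 12 panels.

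Hox genes, ordered along 4 chromosomal clusters and read out in that order along the body axis, mostly overlapped between depots. Of 39 Hox genes 25 reached 1 CPM, and 4 (Hoxa7, Hoxa9, Hoxc9 and Hoxc10) were higher in iWAT without overlap, 2 (Hoxa4 and Hoxd3) higher in eWAT, and 19 overlapped. No overlap in the direction of iWAT was found for 11.6% of all genes at 1 CPM and in that of eWAT for 7.2%, so these counts lie near the background and the genes are described one by one. Hoxc10 (chr15:102966796-102971897) was the only Hox gene with a clear model among the members: 22.2, 30.9 and 59.9 CPM in iWAT against 0.0967, 1.26 and 3 CPM in eWAT ZT3 and 0.336, 0.809 and 8.02 CPM in eWAT ZT12 (4.49 ± 0.20 on the log2 scale at ZT3). Hoxc9 beside it had 13.7, 20 and 24.3 CPM against 2.25, 5.68 and 9.13 CPM. The more anterior genes Hoxc5, Hoxc6 and Hoxc8 overlapped. In cluster A, Hoxa7 had 17.9, 22.3 and 34.7 CPM against 6.53, 7.37 and 11.7 CPM, and Hoxa9 8.77, 16.1 and 26.1 against 0.343, 2.55 and 8.04 CPM.

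Hoxa10 had 11.5 to 31.5 CPM in iWAT and overlapped with eWAT ZT3 only through control replicates 1 and 3, at 30.6 and 26.4 CPM, with the other 4 libraries at 0 to 1.71 CPM. Those are the libraries with vas deferens markers. They also held nearly all epididymal reads of Hoxa11 (16.2 and 16.5 CPM) and Hoxd13 (13 and 6.39 CPM), which in the other 4 ZT3 libraries reached at most 0.1 and 0.0819 CPM. Hoxd3 was a member higher in eWAT, with 3.31, 6.59 and 17.1 CPM against 0.075, 0.302 and 0.47 CPM, and 60.2% of its windows are shared with other genes. In cluster B all 8 detected genes overlapped.

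**Figure D4:**
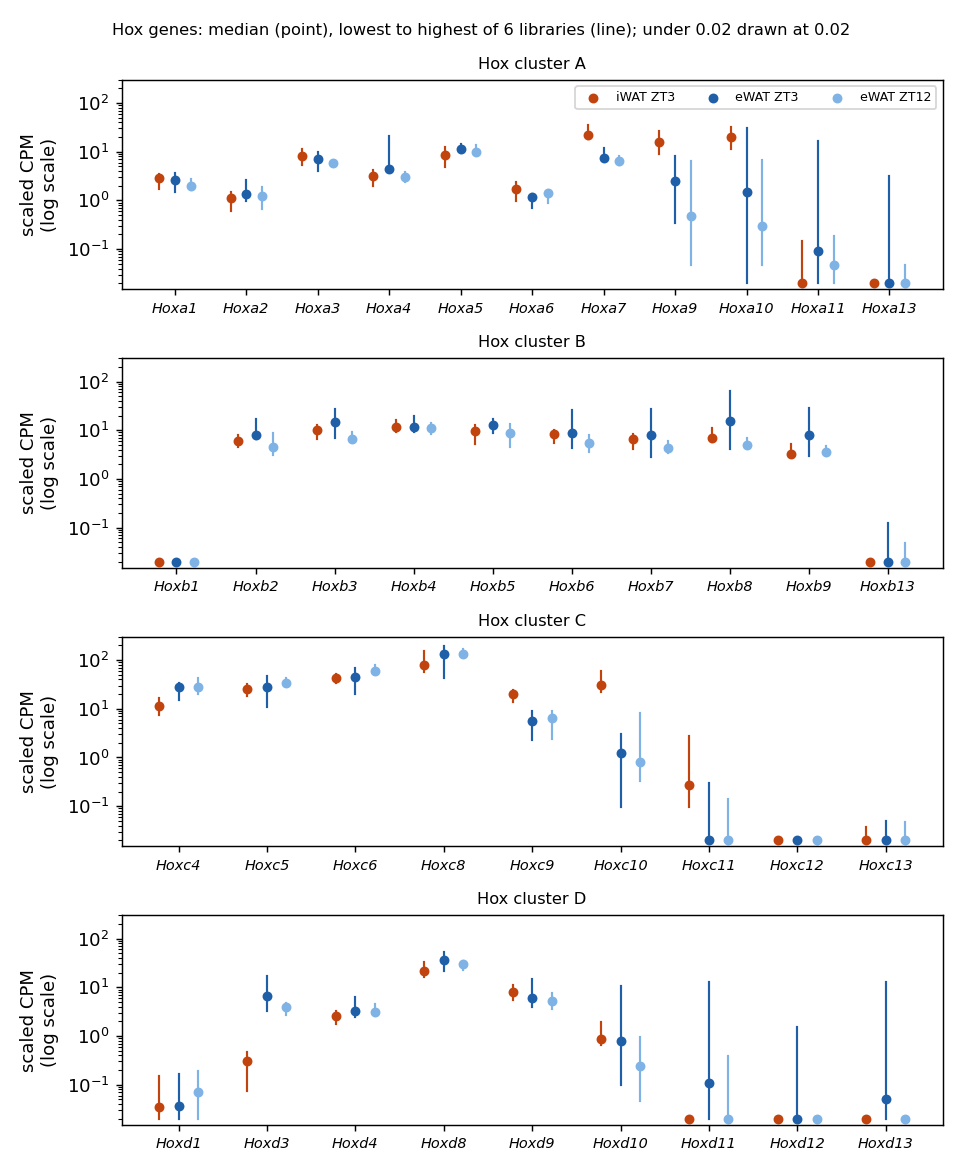
Scaled CPM (log scale) of the Hox genes of clusters A to D in their order, as the median (point) and the lowest to highest value (line) of 6 libraries of iWAT ZT3 (red), eWAT ZT3 (dark blue) and eWAT ZT12 (light blue); values under 0.02 are drawn at 0.02. The red points separate at Hoxa7, Hoxa9, Hoxc9 and Hoxc10, and the long dark blue lines at Hoxa10, Hoxa11 and Hoxd13 come from 2 libraries.

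Mesothelial genes were, among the lists, the one with the most members higher in eWAT. Of 20 mesothelial genes at 1 CPM, 9 were members higher in eWAT and 0 higher in iWAT (eWAT background 1.2%), with a median log2 difference of -2.88, and 11 were higher in eWAT without overlap (7.2% of all genes). The summed level of the list overlapped, at 234 to 672 CPM in iWAT and 393 to 850 CPM in eWAT ZT3. Upk3b (chr5:136038496-136044993), a uroplakin of the mesothelial surface, had 11.9, 44 and 52.4 CPM in eWAT ZT3, 14.1, 38.4 and 136 CPM in eWAT ZT12 and 0.0703, 0.111 and 0.182 CPM in iWAT, a difference of -5.86 ± 0.29 (log2, SE, n = 6 and 6). Upk1b, another uroplakin, had 5.25, 15 and 18.6 CPM against at most 0.11 CPM. Msln, mesothelin, had 5.15, 16.6 and 21.2 CPM against 0.162, 0.503 and 1.51 CPM, and Lrrn4, a leucine-rich repeat protein, 5.49, 20.8 and 25.5 against 0.375, 1.06 and 2.2 CPM.

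The other members of the list were Wt1, Bnc1, Nkain4, Pkhd1l1 and Krt7, a keratin whose lengths were 4.47-fold apart. Between libraries of eWAT the 9 genes shared their extremes: ZT3 shiftwork replicate 2 was the lowest of the 6 for 9 of 9, and at ZT12 shiftwork replicate 1 was the highest for 9 of 9. Upk3b was 11.9 and 136 CPM in those libraries. Of the rest of the list, Aldh1a2 and Rspo1 were higher in eWAT without overlap and without a 2-fold gap, while Cldn15, a claudin, went the other way, with 54.8, 86.4 and 105 CPM in iWAT against 16.3, 29 and 50.3 CPM.

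Of 16 skeletal muscle genes at 1 CPM, 6 were members higher in iWAT (background 0.846%) and 0 higher in eWAT. Another pair did not overlap, 8 in all (11.6% of all genes), the other 8 overlapped, and the median log2 difference was 3.52. The summed level of the list overlapped: eWAT ZT3 control replicates 1 and 3 had 527 and 381 CPM, above 4 of the 6 inguinal libraries (143 to 246 CPM), and the other 4 eWAT ZT3 libraries had 59.97 to 76.8 CPM. Of the 6 members 3 had clear gene models (Pvalb, Mylpf and Tnnt3). In this list, iWAT shiftwork replicate 1 was the highest inguinal library for 6 of 6: parvalbumin, Pvalb, was at 2133 CPM there and at 2.75 to 32.3 CPM in the other 5, and Mylpf, a fast myosin light chain, at 2111 CPM and at 3.04 to 31.9 CPM. All 6 kept a 2-fold gap without that library. Myh4, the fast 2B myosin heavy chain, was at 11.2 to 276 CPM in the other 5 inguinal libraries and at most 0.328 CPM in eWAT ZT3, with 18.5% shared windows. Tnnt3, a fast troponin T, followed the same order of libraries at the top, as did Ttn, titin, a clear member outside the list. So did Tnni2, whose lengths were 2.26-fold apart, and Atp2a1, with 17.9% shared windows, both outside the clear set. At ZT12 Pvalb overlapped (1.3 to 3.18 CPM in eWAT).

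Of the nerve and Schwann cell genes, Prx, periaxin of the myelin sheath, had 7.51, 23.8 and 39.4 CPM in iWAT against 1.91, 3.31 and 6.17 CPM in eWAT ZT3. The summed level of all 15 listed genes overlapped, at 396 to 881 CPM in iWAT and 345 to 876 CPM in eWAT ZT3.

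Within eWAT, Hoxc10 differed among libraries: the 3 ZT3 controls had 2.04 to 3 CPM and the 3 ZT3 shiftwork libraries 0.0967 to 0.492 CPM. At ZT12 shiftwork replicates 2 and 3 were highest.

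Matrix and signalling genes of iWAT included Dpt, dermatopontin, a matrix protein of skin and connective tissue, with 816, 1162 and 1618 CPM against 163, 287 and 381 CPM in eWAT ZT3 and 278, 326 and 459 CPM in eWAT ZT12. It was the most abundant per length of the clear members higher in iWAT, with a median of 639 in the deposited RPKM of the inguinal libraries, beside 28.9 RPKM for Mmp3 and 2.33 RPKM for Gsc. Mmp3, the stromelysin, had 28.5, 56.4 and 199 CPM against 0.49, 1.66 and 3.79 CPM, and Mmp2, gelatinase A, 120, 283 and 531 against 41, 54.9 and 59.9 CPM. No collagen was a member, which lies near the background of 2.04% of all genes at 1 CPM. Of 43 collagen and matrix genes at 1 CPM, 8 were higher in iWAT without overlap and 0 in eWAT (11.6% and 7.2% of all genes). The list's median log2 difference was 0.49 against ZT3 and 0.11 against ZT12, beside 0.07 and 0.04 over all genes. Among the 8 was Col1a1 (871, 1496 and 6616 CPM against 350, 421 and 505 CPM). Of 21 progenitor and fibroblast genes, 4 did not overlap, all higher in iWAT (11.6% of all genes), with Pi16 at 57.8, 187 and 457 against 19.9, 24.4 and 38.1 CPM.

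Gdf11, a growth factor of the TGF-beta family, had 3.93, 10.4 and 20.1 CPM against 0.836, 1.36 and 1.88 CPM. Il1r2, the decoy receptor for interleukin-1, had 4.59, 10.6 and 59.6 against 0.25, 0.39 and 0.984 CPM. Of 20 macrophage genes 5 were higher in iWAT without overlap at ZT3 (11.6% of all genes) and 0 in eWAT. The list's median log2 difference was 1.10 against ZT3 and 0.01 against ZT12. Its summed level ran the other way, with a median of 9233 CPM in iWAT (7528 to 17008), 18171 CPM in eWAT ZT3 (7453 to 24790) and 17404 CPM in eWAT ZT12, and the ZT3 ranges overlapped. Cd68 had 82, 108 and 312 CPM in iWAT and 35.6, 50 and 64.2 CPM in eWAT ZT3, and its difference against ZT12 was -0.06.

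Of 21 thermogenic genes, 1 was a member higher in iWAT and 1 higher in eWAT (0.846% and 1.2% of all genes). In these directions 5 and 2 did not overlap, beside 11.6% and 7.2% of all genes, so the eWAT count lies near its background. Otop1, a proton channel expressed in brown and beige fat, had 18.3, 29.6 and 47.9 CPM in iWAT against 1.37, 2.49 and 8.93 CPM at ZT3. Against ZT12 (8.3, 10.9 and 17.3 CPM) the nearest libraries were 1.06-fold apart. Cidea had 8.4, 19.1 and 76.2 CPM in iWAT against 2.25, 3.63 and 6.62 CPM, and Prdm16, a regulator of beige fat, 27.6, 34.2 and 49.2 against 9.05, 13.1 and 15.3 CPM. Ucp1, the uncoupling protein, was low throughout, at 0.356 to 8.33 CPM in iWAT and 0 to 0.788 CPM in eWAT ZT3. Cpt1b, the muscle form of carnitine palmitoyltransferase, was the member higher in eWAT and has 78.5% shared windows.

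Secreted and receptor genes of eWAT included Agt, angiotensinogen, the precursor of angiotensin, with 82.2, 157 and 175 CPM in eWAT ZT3, 60.8, 104 and 114 CPM in eWAT ZT12 and 2.98, 8.87 and 23.7 CPM in iWAT (-3.93 ± 0.47, log2). Prlr, the prolactin receptor, had 21.2, 50.7 and 129 CPM against 1.26, 2.5 and 7.7 CPM. Its 2 highest values, 128 and 129, were in the libraries with vas deferens markers, and at ZT12 it was at 18.4 to 24.3 CPM. Dsp, desmoplakin, was high in those 2 libraries and in the one with spermatid transcripts (71.4 to 100 CPM) and at 1.32 to 4.82 CPM in the other 3, all above the 0.147 CPM that iWAT reached. Lrp2, megalin, was at 190 CPM in the library with spermatid transcripts and at 1.91 to 25.4 CPM in the other 5. Akr1b7, an aldo-keto reductase of the vas deferens, reached 9494 CPM and has 15.3% shared windows. The part of neighbouring organs in these 4 values was not tested.

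Further clear members higher in eWAT were Serpina3b, Wdr74, Rab27b, Cadps, Gm10451, Lnpk, Senp5, Slc2a12 (a glucose transporter), 4921536K21Rik, Lmntd1, Cpeb2 and Rnase2a. Further clear members higher in iWAT were Scamp3, Clk2 (neighbours 304 bases apart), Setdb2, Tonsl, Ppp2r3d, Fbxl18, Vat1l, Akr1c18, Upp2, Ier5l and Plekhn1. Among the lists with no member were those of lipogenesis (24 genes at 1 CPM, median -0.78), adipocyte identity (30, median 0.15) and the circadian clock (17, median 0.13). Members are 2.04% of all genes at 1 CPM, so having none in lists of this size lies near the background. All 17 clock genes overlapped between depots, while 11.6% and 7.2% of all genes were higher in iWAT and in eWAT without overlap.

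At the edge of the rule, the members nearest to 2-fold were Taf10 (2.01), Mmp2 (2.01) and Gtf3c2 (2.01), and the genes just outside it were H2-T10 (1.998), Penk (1.990) and Vgll4 (1.988), given as ratios of the nearest libraries.

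The 6 eWAT ZT12 libraries did not take part in the choice, although the inguinal libraries in this check are the same. They were also counted together with the eWAT ZT3 libraries, on the same gene models. A difference between the files would recur at ZT12, so this check cannot tell it from a depot difference. Of 422 members 340 kept a 2-fold gap there, 129 of 169 higher in iWAT and 211 of 253 higher in eWAT. At 1 CPM these were 83 of 108 and 141 of 153, while 1.1% and 1.39% of all genes at that level had such a gap against ZT12. Of the 58 clear members 47 did (24 and 23), and 54 did not overlap, beside 14.3% and 11.3% of all genes higher in iWAT and in eWAT without overlap at ZT12. The 4 that overlapped were Pvalb, Vat1l, Rnase2a and Adgrg2. Vat1l overlapped through ZT12 shiftwork replicate 1 alone, at 19.2 CPM beside 1.32 to 3.31 CPM in the other 5. Rnase2a, an eosinophil-type ribonuclease, was at 1.77 to 13.9 CPM in eWAT ZT3 and at 0.0949 to 0.624 CPM in 5 of the 6 ZT12 libraries, with 4.49 CPM in shiftwork replicate 1. Adgrg2, an adhesion receptor known from the epididymis, was at 38.9 to 323 CPM at ZT3 and 13.8 to 26.7 CPM at ZT12, against 5.93 to 15.8 CPM in iWAT. Dpt, Mmp2, Otop1, Lnpk, Slc2a12, Cpeb2 and 4921536K21Rik lost the 2-fold gap and did not overlap.

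**Figure D5:**
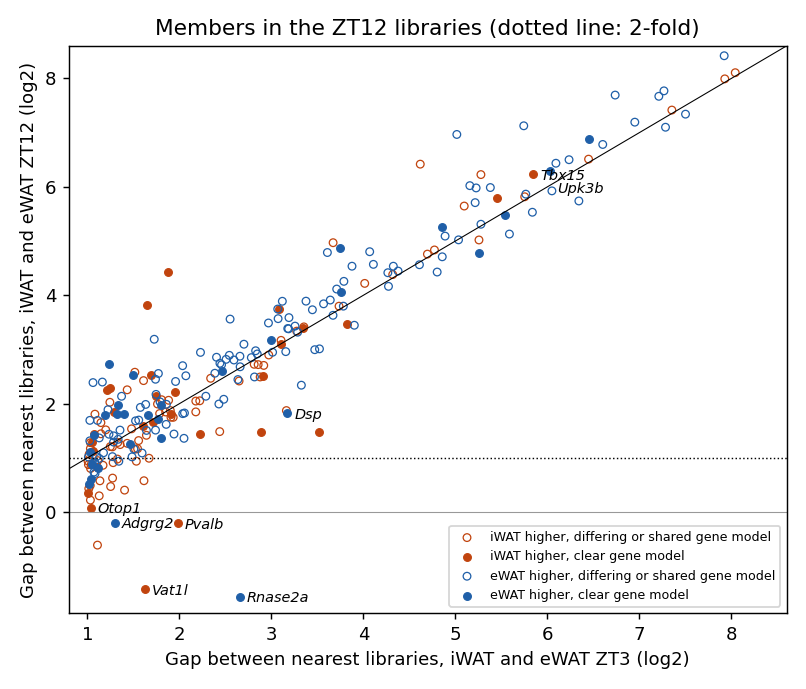
Gap between the nearest libraries of the depots (log2 of the lowest value in the higher depot over the highest in the lower) for iWAT against eWAT ZT3 (x) and against eWAT ZT12 (y), for the 261 members at 1 CPM. Filled points have clear models, the diagonal marks equal gaps and the dotted line 2-fold; 224 members lie above it and Rnase2a and Vat1l lie lowest.

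Whether members responded to the schedule was tested within each table. The rule pooled the schedules and did not use this contrast, but it did use the same iWAT and eWAT ZT3 values. A gene had to be apart in all 6 libraries of a depot, which can leave out genes that differ by schedule. Member counts at ZT3 are therefore not independent of the choice. No member passed in any of the 3 comparisons, and no gene of the whole table did (0% called). In eWAT at ZT3, 0 of 232 members tested had an adjusted p under 0.05 by edgeR's quasi-likelihood test with Benjamini-Hochberg adjustment, and 38 had an unadjusted p under 0.05 (18.8% of all 15141 genes did). DESeq2 called 10 of 241 members and 662 genes. At ZT12 it was 0 of 232, with 9 under an unadjusted 0.05 (2.34% of all genes), and DESeq2 called 0 members and 11 genes. In iWAT, limma called 0 of 214 members, with 8 under an unadjusted 0.05 (6.68% of 16387 genes), and edgeR on the recovered reads called 0 of 212. Hoxc10 differed by -3.13 ± 0.89 (log2, shiftwork minus control) in eWAT at ZT3 (edgeR, adjusted p = 0.207) and by 2.79 ± 0.86 at ZT12 (edgeR, adjusted p = 1), lower in 3 of 3 shiftwork libraries at ZT3. Tbx15 in iWAT differed by 1.06 ± 0.62 (limma, adjusted p = 0.689), with the library rich in skeletal muscle transcripts included. Without eWAT ZT3 control replicate 2, edgeR called 5 members at ZT3.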

How the data were processed

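Polyadenylated RNA of 18 fat samples was sequenced with 51-base single reads. Builds mm10 and GRCm38 and the tools HTSeq, STAR, limma, edgeR and DESeq2 are named, without roles or versions, per the submitters' processing notes. The authors deposited raw read counts per gene symbol for eWAT. For iWAT the deposited table holds a signal: reads per Ensembl gene divided by 1 factor per library, since 100% of 310956 values were whole multiples of that library's step (tolerance 1e-06), and these whole reads were used. This unit was foreseen when the tests were chosen. The deposited log2 FPKM (eWAT) and RPKM (iWAT) served as an alternative scale and for gene lengths; the deposited p-values and log2 fold changes of iWAT were not used.

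Reads of the 23410 symbols in both tables were scaled by TMM over 18 libraries (edgeR 4.0.16, R 4.3.3); the shared symbols held 95.1 to 99.9% of reads. The lowest value of one depot had to be above 0 and at least 2 times the highest of the other. A floor of 3 reads was used for the gaps between nearest libraries and not for membership. Differences use log2(CPM + 0.5). The depots stand in tables made separately, so tests were run only within a table. Schedules were tested by edgeR's quasi-likelihood fit over 12 eWAT libraries (TMM, filterByExpr) and by limma 3.58.1 (trend, robust) on log2(value + 1) for iWAT, with Benjamini-Hochberg adjustment over all genes and a threshold of 0.05; DESeq2 1.42.0 was an alternative. The fits were also run on simulated data with the same spread for every gene and no library carrying transcripts of other organs. The real libraries differ in both, so that run does not show how the fits behave here. Shared windows and positions come from GENCODE M21 (GRCm38), which may not be the authors' annotation; 23359 of 23410 symbols matched. Promoters are RefSeq's, build GRCm38.p6. Which strand the authors counted is not given in the sources used here.

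Named genes were the 15 members at 1 CPM with the widest gap in each direction, Hox members, up to 6 members of each list and 3 genes on each side of the threshold; the other clear members, and listed genes that are no members, were named after their values were seen. Some members are not reported here. Members, lists and the check of gene models were chosen with earlier results of these data known. At ZT12 the deviations of each shiftwork library correlated best with the same-numbered control library (0.31, 0.132 and 0.203). In eWAT ZT3 this held for replicate 2 alone (0.172), and in iWAT for none. These correlations are low and were not tested, so whether replicate numbers pair libraries is not known. Alternatives covered scaling, unit, fold, low values and libraries. P-values measure the spread between these samples, which may be technical.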

Additional observations from a re-analysis of the deposited data

Results flagged for a closer look

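Of 112 groups of 6 libraries looked at for the named members, 15 (13.4%) held a value far from the other 5. In each, the log2 gap of that library to its nearest neighbour took up more of the group's range than Dixon's critical value of 0.625. For independent groups with normal values chance gives about 1 in 20. These groups reuse the same libraries and hold genes that move together, so that rate does not apply directly. In eWAT ZT3 shiftwork replicate 3, the library with spermatid transcripts, 4 genes were highest: Eno1 at 4.01 CPM (others at most 0.637), Taf9 at 95.1 CPM (others at most 24.5), Gemin4 at 30.0 CPM (others at most 11.04) and Cpt1b at 96.1 CPM (others at most 10.8). In eWAT ZT3 shiftwork replicate 2 the mesothelial genes Upk3b (11.9 CPM), Bnc1 (1.52 CPM) and Msln (5.15 CPM) were lowest, with the next libraries at 32.9, 4.55 and 14.9 CPM. In iWAT shiftwork replicate 1 the muscle genes Tnni2 (2291 CPM), Pvalb (2133 CPM) and Mylpf (2111 CPM) were highest, with no other library above 39.8 CPM. At ZT12, Wt1 was at 40.7 CPM in shiftwork replicate 1 (others at most 12.7), Dsp at 9.63 CPM (others at most 1.47) and Taf9 at 17.8 CPM (others at least 19.5) in shiftwork replicate 2, and Zbed6 at 18.2 CPM in shiftwork replicate 3 (others at least 34.4). Pde2a in iWAT was at 1.01 CPM in shiftwork replicate 2 (others at most 0.693).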

How the results depend on the processing

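Under library totals the rule kept 167 genes higher in iWAT and 243 higher in eWAT, under DESeq2 size factors 155 and 260, and 393 of 410 and 408 of 415 genes were among the 422. With the deposited FPKM and RPKM these were 176 and 381, and only 300 of 557 genes were shared, so the choice of unit changes which genes are members; Taf10 then turned (-0.64, log2). Of the clear members at 1 CPM, 24 of 29 and 21 of 29 were kept on that scale, of the other 203 members 29 of 79 and 88 of 124. Counts higher in iWAT, higher in eWAT and with a 2-fold gap at ZT12 were 108, 153 and 224 at 1 CPM, 1601, 1094 and 1871 with no overlap but no fold, 75, 171 and 207 at 4-fold, 594, 730 and 688 in control libraries only and 408, 446 and 568 in shiftwork libraries only. Without the 3 eWAT ZT3 libraries with vas deferens or spermatid markers, 422 were higher in iWAT. With clear gene models, a choice made after seeing the data, they were 29, 29 and 47. Fewer libraries can only add members, by the rule's construction: without 1 library the counts were 172 to 231, 256 to 314 and 344 to 379. For the schedule, DESeq2 called 10 members at eWAT ZT3; without 1 library edgeR called 0 to 5 (5, and 403 genes in all, without eWAT ZT3 control replicate 2), and limma 0 to 1 in iWAT (1, and 360 genes in all, without iWAT control replicate 3). With the replicate number as a block the calls were 0 in all 3 comparisons, and the block changed no call. Over 56 named genes and 19 settings, 994 values stayed within the spread between replicates, 69 moved and 1 reversed. Most of the moves, and the reversal of Taf10, came with the deposited FPKM and RPKM, where most of the named genes moved. At 20352008 reads or more per library, 3 reads are 0.0394 to 0.151 CPM, taken here as the limit of detection. The rule itself asked only for values above 0 in the higher depot.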
